A study of Homo sapiens with 9 samples.

Results

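The matrix metalloproteases (MMP), the membrane-bound ADAM proteases, the secreted ADAMTS proteases with their ADAMTS-like relatives, and the tissue inhibitors of metalloproteases (TIMP) were followed in RKO cells with and without DIP2C. RKO is an established human colorectal cancer cell line. Members were taken by gene symbol, and 74 of the 23619 genes in the count tables matched: 24 MMP, 22 ADAM, 19 ADAMTS, 5 ADAMTSL and 4 TIMP genes. The symbols alone decide which genes are members.

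Metalloproteases of these families use a zinc ion to cut proteins outside the cell or at its surface. MMPs degrade collagens and other parts of the extracellular matrix, and most are secreted or membrane-anchored as inactive precursors. Among the ADAMs, ADAM10 and ADAM17 release the outer parts of receptors, adhesion molecules and growth factor precursors, a step called shedding, while other ADAMs have lost the active site and act as adhesion or receptor-binding proteins. ADAMTS proteases are secreted and process procollagens, proteoglycans and von Willebrand factor. ADAMTS-like proteins share their accessory domains but lack the protease domain, and TIMPs bind and inhibit the active enzymes.

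RNA was sequenced from 9 samples, each from cells grown for 48 h after plating. These were 2 samples of unmodified parental RKO, 2 clones labelled DIP2C-/- (E3 and C10) and 5 clones labelled DIP2C+/- (A6-C9, A9-A12, F6-A7, G1-A5 and H9-A4). The paper describes fewer DIP2C+/- clones than the 5 labelled so, and the labels do not give how each of the 5 was made. Per the paper, knockout clones were grown from single cells after viral targeting of DIP2C exon 9, drug selection and Cre removal of the selection cassette. The DIP2C-/- clones came from a further targeting round in a DIP2C+/- clone. The parental cells went through none of these steps, so targeting, selection and single-cell cloning cannot be told apart from the loss of DIP2C. Each clone gave 1 sample, and p-values measure the spread between these samples only. Per the paper, both DIP2C-/- clones came from the same DIP2C+/- clone, so they are not independent of each other. Whether that clone is among the 5 DIP2C+/- samples is not given by the labels.

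Levels are given as CPM, a count scaled to a common library total, that is the rounded deposited value divided by the sample's normalised total. The totals were 14772593 to 21486483, and the limit that a count of 0 allows (3 counts, counting error only) was 0.148 to 0.194 CPM per sample. DIP2C itself had 61.0 and 70.9 CPM in parental RKO, 17.4 in E3 and 22.8 in C10. Among the DIP2C+/- clones it had 56.3 in H9-A4, 47.0 in F6-A7, 41.7 in G1-A5, 38.9 in A9-A12 and 33.6 in A6-C9, so every clone lay below both parental samples and H9-A4 lay nearest to them. Clone H9-A4 also stood apart across all genes: its log2 differences from parental RKO had a correlation of 0.162 with those of E3 over 15532 genes (a description, since both share the parental samples), against 0.457 to 0.757 for the other clones. Counts of calls, and the members that passed, are therefore given with all 9 samples and without H9-A4. RKO showed KRT18 (121 to 293 CPM), KRT8 (7.02 to 21.5 CPM) and CDX2 (15.6 to 19.8 CPM), an intestinal transcription factor, while CDH1, KRT19, KRT20 and VIL1 were under 1 CPM in every sample.

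Of the 74 members, 23 were off, meaning a deposited value under 10, before rounding, in every sample (10 counts are 0.493 to 0.645 CPM). TIMP3 and ADAM2 lay just inside that limit with 9.76 in E3, which rounds to it. Another 6 reached 10 counts somewhere but were too low for the fit, and 45 were tested. The off genes included 3 of the 4 inhibitors, TIMP2, TIMP3 and TIMP4, and 13 of the 24 MMPs. Those were the gelatinase MMP2, the collagenases MMP8 and MMP13, the matrilysins MMP7 and MMP26, the macrophage elastase MMP12, and MMP17, MMP20, MMP21, MMP23A, MMP23B, MMP27 and MMP28. MMP23A, annotated as a pseudogene beside its near copy MMP23B, had 0 in all 9 samples, and the split of reads between such copies is uncertain. Off as well were ADAM2, ADAM5, ADAM6, ADAM18 and ADAM29, of a group known mainly from testis, and ADAMTS7 and ADAMTS8. Of these, ADAM5 is annotated as a pseudogene and ADAM6 as a long noncoding RNA gene. The 6 low genes were MMP9, ADAM7, ADAM20, ADAM23, ADAM28 and ADAMTS4, with at most 0.838 CPM.

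A chromosome 11 cluster holds 9 MMP genes between positions 102391239 and 102826461 (GRCh37). Of these, 6 were off and MMP1, MMP3 and MMP10 were tested, the highest value anywhere in the cluster being 3.11 CPM for MMP1 in clone C10.

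Divided by the length of 1 annotated transcript per gene, so that genes can be compared, 21 members exceeded 1 CPM in both parental samples. ADAM15 led with 85.7 and 89.0 CPM per kilobase, followed by TIMP1 with 69.0 and 82.4, ADAM9 with 24.6 and 32.0, ADAMTSL1 with 17.1 and 18.1 and MMP15 with 10.4 and 10.7. These 5 had no overlap between neighbours in the order. ADAM10 (8.55 and 9.25) and ADAM17 (8.36 and 9.07) overlapped and cannot be ranked by this measure, and the membrane protease MMP14 came next with 6.04 and 7.01. The lengths used were 11158 bases for ADAM10 and 4391 for ADAM17. Before division by length, ADAM10 had 95.4 and 103 CPM and ADAM17 had 36.7 and 39.8. Which transcripts RKO uses was not tested, so the order holds only for the lengths chosen. From MMP24 (1.85 and 2.55 CPM per kilobase) down to ADAMTSL5 (1.27 and 1.40) each gene overlapped the next one. Parental RKO therefore held transcripts of several membrane proteases, of 1 inhibitor and of an ADAMTS-like gene, while most secreted MMPs were at or near the detection limit.

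**Figure D1:**
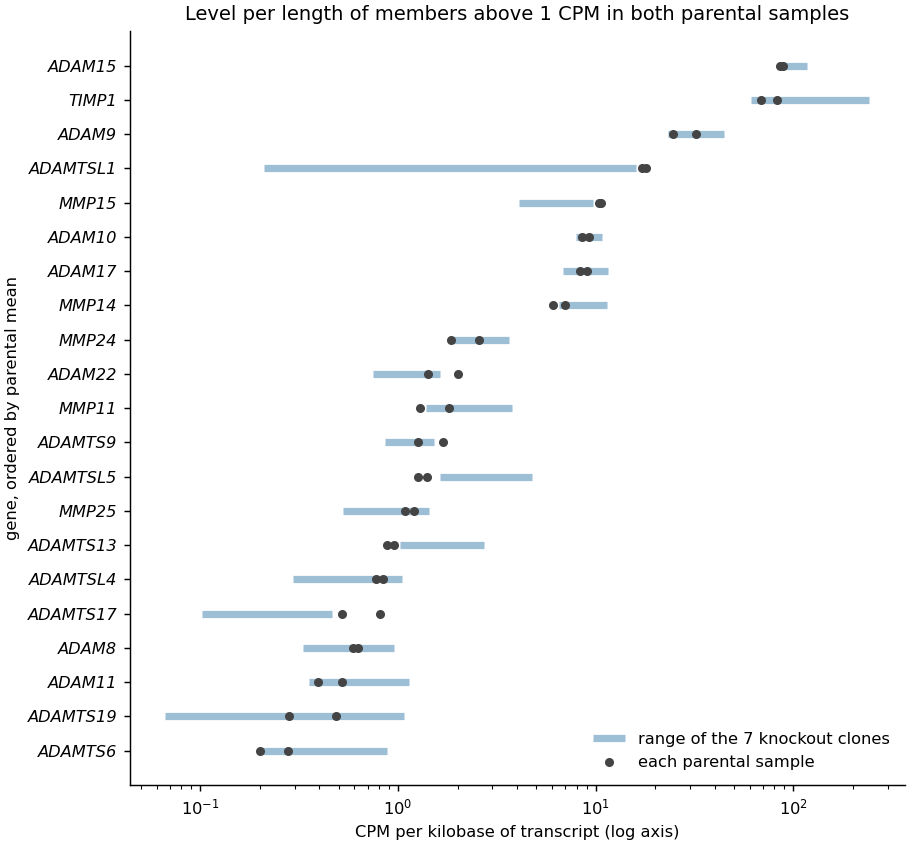
Level in CPM per kilobase of transcript (log axis) of the 21 members above 1 CPM in both parental samples, ordered by parental mean. Points are the 2 parental samples and bars span the 7 knockout clones; the bar of ADAMTSL1 reaches down to 0.209 and that of TIMP1 up to 242.5.

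Across all genes, the comparison asks which members differed between knockout clones and parental RKO at an adjusted p under 0.05 (edgeR quasi-likelihood test, Benjamini-Hochberg over all genes tested). With all 9 samples, 0 of 45 members passed in any contrast. In DIP2C-/- clones the background was 0% of 15532 genes higher and 0.00644% lower. For DIP2C+/- clones it was 0% and 0.0966%, for all 7 clones together 0.00644% and 0.174%, and for DIP2C+/- against DIP2C-/- clones 0%. DESeq2's Wald test on the same samples called MMP15 lower in DIP2C-/- clones and over all clones (adjusted p = 0.00319 and 0.0269, against 1.33% and 1.02% of all genes lower) and no other member. It gave an adjusted p for 33 members in DIP2C-/- clones, 44 in DIP2C+/- clones and 36 over all clones, and for ADAMTSL1 in none of these. At an unadjusted p under 0.05 (edgeR), 4 members were higher and 2 lower in DIP2C-/- clones, 4 and 3 in DIP2C+/- clones, and 4 and 3 over all clones. These are 13.3%, 15.6% and 15.6% of the members, beside 12.7%, 11.6% and 13.4% of all genes. The median log2 fold change of the 45 members over all clones was 0.33, against 0.02 for all genes tested, and 0.16 for the 24 members with at least 10 counts in every sample. Clone by clone the member median ran from −0.40 in G1-A5 to 0.58 in E3 and 0.61 in F6-A7. G1-A5 had the largest deposited total of all samples, and E3 and F6-A7 had the smallest. Over genes of very low count, picked by a limit in counts, G1-A5 also had the lowest mean level and E3 and F6-A7 the highest. The part of the total or of that level in the median was not tested.

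Clone H9-A4 was left out after its values in these same data were seen, which lowers the spread between clones. The p-values of that fit therefore describe the remaining samples and do not allow for this choice. Without clone H9-A4, 44 members were tested among 15390 genes and 5 passed in at least 1 contrast. TIMP1 rose and ADAMTSL1 and MMP15 fell in DIP2C-/- clones, that is 1 member higher and 2 lower against backgrounds of 2.32% and 2.44%. In DIP2C+/- clones TIMP1 and ADAMTSL5 rose, and ADAMTSL1, MMP15 and ADAM22 fell, 2 and 3 members against 4.37% and 3.58%. For the 6 clones together, 2 rose and 2 fell against 4.48% and 4.47%. Members called were at most 3 of 44 in a direction, and shares from so few members are rough. The calls are therefore read as single genes, and whether the families shifted as a whole was not tested. A fit of only the 2 DIP2C-/- clones and 2 parental samples, which does not contain H9-A4 or any other DIP2C+/- clone, called TIMP1, ADAMTSL5 and MMP1 higher and ADAMTSL1 and MMP15 lower, 3 and 2 of 37 members tested against 5.74% and 6.82% of all genes. The spread in that fit comes only from 2 clones of the same DIP2C+/- origin and 2 samples of parental RKO. Its p-values therefore do not cover the variation between independent knockout clones. DIP2C itself, not a member, passed in the fit without H9-A4 with a log2 fold change of −1.71 in DIP2C-/- clones (adjusted p = 0.00103, edgeR) and −0.71 in DIP2C+/- clones (adjusted p = 0.0285, edgeR), but not with all 9 samples (adjusted p = 0.0998 and 0.386, edgeR).

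**Figure D2:**
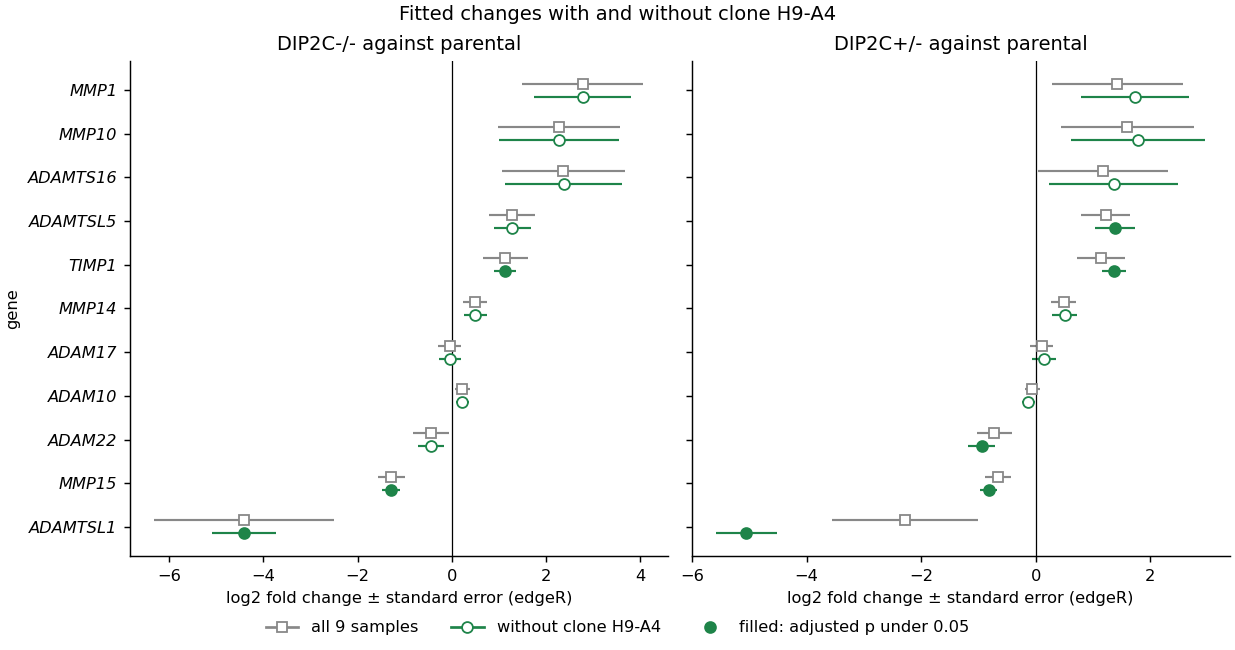
Log2 fold change with its standard error (x axis) for 11 members (y axis) in DIP2C-/- clones (left) and DIP2C+/- clones (right) against parental RKO. Squares are the fit of all 9 samples and circles the fit without clone H9-A4; filled symbols have an adjusted p under 0.05, which are ADAMTSL1, MMP15 and TIMP1 on both sides and ADAM22 and ADAMTSL5 on the right.

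ADAMTSL1, also called punctin, is a secreted ADAMTS-like glycoprotein of the extracellular matrix without protease activity. It gave the largest difference of any member. The gene lies on the plus strand of chromosome 9 from 17906561 to 18910948 (GRCh37). Parental RKO had 133 and 140.3 CPM. E3 had 10.4 and C10 had 2.64 CPM, F6-A7 had 6.15, A9-A12 had 6.44, G1-A5 had 1.63 and A6-C9 had 2.35, but H9-A4 had 124. So 6 clones lay far below both parental samples, at a mean 27.7-fold lower, and 1 clone labelled DIP2C+/- lay just below them. In bulk RNA a lower level in every cell and fewer cells with the transcript cannot be told apart. Within the DIP2C+/- group the values were 28.1 ± 53.7 CPM (SD, n = 5) with H9-A4 and 4.14 ± 2.51 CPM (SD, n = 4) without it.

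Without H9-A4, the log2 fold change of ADAMTSL1 was −4.41 (SE 0.68, adjusted p = 0.00429, edgeR) in DIP2C-/- and −5.05 (SE 0.53, adjusted p = 0.000195, edgeR) in DIP2C+/- clones. With all 9 samples it was −4.40 (SE 1.91, adjusted p = 0.380, edgeR) and −2.28 (SE 1.28, adjusted p = 0.512, edgeR). Over the 15 alternative settings the adjusted p ranged from 0.000557 to 0.768 for DIP2C-/- and from 0.000195 to 0.868 for DIP2C+/- clones, with the sign negative throughout. The only other gene of the tables inside its bounds is the microRNA gene MIR3152, with at most 0.0609 CPM.

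**Figure D3:**
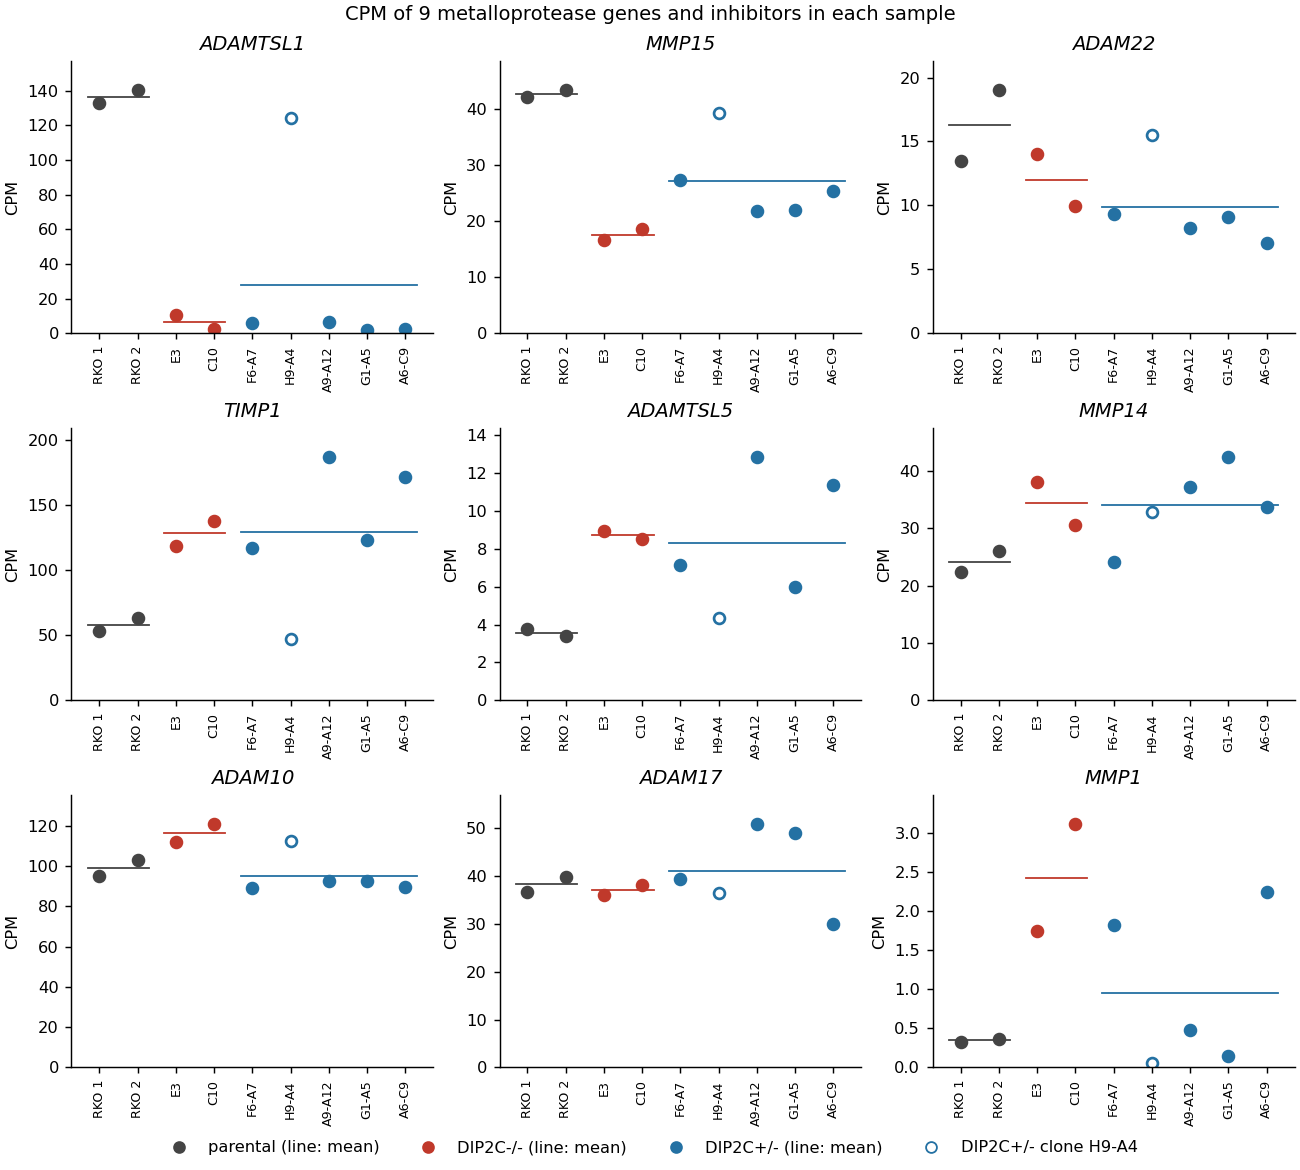
CPM (y axis, from 0) of 9 members in each of the 9 samples (x axis); colours mark parental RKO, DIP2C-/- and DIP2C+/- clones, lines are group means, and the open circle is clone H9-A4. For ADAMTSL1, MMP15 and TIMP1 the open circle sits beside the parental points, while the 6 other clones sit apart from them.

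The remaining ADAMTS-like genes were far lower than ADAMTSL1 in parental RKO. ADAMTSL5, which codes for a secreted matrix protein on the minus strand of chromosome 19 (1505021 to 1513603, GRCh37), had 3.75 and 3.39 CPM in parental RKO. It had 8.97 in E3, 8.50 in C10, 7.13 in F6-A7, 4.36 in H9-A4, 12.8 in A9-A12, 5.96 in G1-A5 and 11.4 in A6-C9. All 7 clones were above both parental samples, H9-A4 by the least. Without H9-A4, ADAMTSL5 rose in DIP2C+/- clones with a log2 fold change of 1.38 (SE 0.35, adjusted p = 0.0359, edgeR), and had 1.29 (SE 0.39, adjusted p = 0.0935, edgeR) in DIP2C-/- clones. With all 9 samples the values were 1.22 (adjusted p = 0.391, edgeR) and 1.29 (adjusted p = 0.354, edgeR), and over 16 alternatives the adjusted p ranged from 0.0359 to 0.868 and from 0.0261 to 0.768. PLK5, on the opposite strand in part of the same interval, had 0.102 to 0.71 CPM, and whether the library kept the strand is not given in the sources used here. ADAMTSL2, ADAMTSL3 and ADAMTSL4 did not pass and stayed between 0.493 and 4.41 CPM in every sample.

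TIMP1 was the only TIMP gene with a deposited value of 10 or more in any sample. It lies on the plus strand of chromosome X from 47441807 to 47446188 (GRCh37) and inhibits most MMPs as a secreted protein. Parental RKO had 53.0 and 63.4 CPM. The DIP2C-/- clones had 119 in E3 and 138 in C10, and the DIP2C+/- clones 187 in A9-A12, 172 in A6-C9, 123 in G1-A5 and 117 in F6-A7, whereas H9-A4 had 46.8. The 6 clones other than H9-A4 were thus all above both parental samples, at a mean 2.45-fold higher, and H9-A4 was below both. TIMP1 rose without H9-A4, with a log2 fold change of 1.14 (SE 0.23, adjusted p = 0.0178, edgeR) in DIP2C-/- and 1.36 (SE 0.21, adjusted p = 0.00292, edgeR) in DIP2C+/- clones. With all 9 samples the values were 1.14 (adjusted p = 0.372, edgeR) and 1.15 (adjusted p = 0.399, edgeR). Over 16 alternatives the adjusted p ranged from 0.00128 to 0.768 and from 0.00292 to 0.868, with the sign positive throughout. SYN1, whose gene spans TIMP1 on the opposite strand, had 0.0522 to 0.766 CPM.

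TIMP2, which takes part in the activation of MMP2 by MMP14, had at most 0.323 CPM (E3) and TIMP3, a matrix-bound inhibitor that also blocks ADAM17, at most 0.645 CPM (E3). In parental RKO, TIMP2 had 0.275 and 0.104 CPM and TIMP3 had 0.275 and 0.209. TIMP2 had 0.323 CPM in E3, 0.207 in C10, 0.227 in H9-A4, 0.183 in F6-A7, 0.246 in G1-A5, 0.215 in A9-A12 and 0.204 in A6-C9. TIMP3 had 0.645 CPM in E3, 0.207 in C10, 0.34 in H9-A4, 0.487 in F6-A7, 0.246 in G1-A5, 0.268 in A9-A12 and 0.408 in A6-C9. Clones and parental samples overlapped for TIMP2, and for TIMP3 as well. Their difference between groups was not detectable at this depth, and 1 inhibitor gene carried nearly all TIMP reads in parental and knockout cells alike.

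Among the membrane-anchored MMPs, only MMP15 passed in a fit run with or without H9-A4. It is a transmembrane protease on chromosome 16 (plus strand, 58059658 to 58080805, GRCh37). Parental RKO had 42.1 and 43.3 CPM, E3 had 16.6 and C10 had 18.5. The DIP2C+/- clones had 27.4 in F6-A7, 39.2 in H9-A4, 21.8 in A9-A12, 21.9 in G1-A5 and 25.4 in A6-C9. All 7 clones were below both parental samples, H9-A4 by the least, and the 2 DIP2C-/- clones were below all 5 DIP2C+/- clones. Without H9-A4, MMP15 fell in DIP2C-/- clones by 1.28 on the log2 scale (SE 0.19, adjusted p = 0.00343, edgeR) and in DIP2C+/- clones by 0.82 (SE 0.16, adjusted p = 0.00885, edgeR). The fit of all 9 samples gave log2 fold changes of −1.28 (adjusted p = 0.266, edgeR) and −0.65 (adjusted p = 0.390, edgeR). Over 16 alternatives the adjusted p ranged from 0.000655 to 0.768 and from 0.00885 to 0.868, with the sign negative throughout.

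MMP14, a transmembrane collagenase on chromosome 14 (plus strand, 23305769 to 23318250, GRCh37), did not pass in any contrast. It had 22.4 and 26.0 CPM in parental RKO, 38.1 in E3, 30.5 in C10, 24.1 in F6-A7, 32.7 in H9-A4, 37.1 in A9-A12, 42.3 in G1-A5 and 33.7 in A6-C9. All clones but F6-A7 were above both parental samples. MMP14 had a log2 fold change of 0.50 in DIP2C-/- clones (SE 0.26, adjusted p = 0.433, edgeR) and 0.49 in DIP2C+/- clones (SE 0.22, adjusted p = 0.428, edgeR), and H9-A4 made little difference to either (0.50 and 0.51 without it). MMP24, another transmembrane form, had 8.10 and 11.2 CPM in parental RKO and 8.27 to 15.8 in the clones. The lipid-anchored MMP25 had 3.97 and 4.44 CPM in parental RKO and 1.94 to 5.26 in the clones, and MMP16 did not exceed 1.16 CPM. None of these 3 passed with or without H9-A4. MMP15 and MMP14, 2 proteases of the same subfamily, thus had values on opposite sides of parental RKO in 6 of 7 clones, of which only the MMP15 decrease passed the test without H9-A4.

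The secreted MMPs were low and varied from clone to clone. MMP1, the interstitial collagenase, is on the minus strand of chromosome 11 (102660132 to 102668891, GRCh37). It had 0.331 and 0.366 CPM in parental RKO, 1.74 in E3, 3.11 in C10, 1.83 in F6-A7, 0.0566 in H9-A4, 0.483 in A9-A12, 0.148 in G1-A5 and 2.25 in A6-C9. Both DIP2C-/- clones were above parental RKO, but the DIP2C+/- clones lay on either side. The log2 fold change in DIP2C-/- clones was 2.78 (SE 1.29, adjusted p = 0.405, edgeR), and 2.78 (SE 1.03, adjusted p = 0.170, edgeR) without H9-A4, so MMP1 did not pass in either fit. It passed when the DIP2C+/- clones were left out entirely (adjusted p = 0.0237, edgeR, the lowest of 15 alternatives, which reached 0.768).

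MMP10 (stromelysin 2) had 0.165 and 0.157 CPM in parental RKO, 1.55 in E3, 0.104 in C10, 1.40 in F6-A7, 0.227 in H9-A4, 0.215 in A9-A12, 0.197 in G1-A5 and 0.511 in A6-C9. Only E3 and F6-A7 were above 1 CPM, so the 2 DIP2C-/- clones differed from each other by more than either genotype mean did from parental RKO. E3 and F6-A7 were also the samples with the highest mean level over 6256 genes of very low count (0.186 and 0.161 CPM, against 0.0778 to 0.129 elsewhere) and the highest summed level of the 23 off members (8.32 and 5.91 CPM, against 2.92 to 5.78). Both sets of genes were picked by a deposited value under 10 in every sample, a limit that is higher in CPM where the total is smaller. E3 and F6-A7 had the smallest totals (14772593 and 16104666), and the mean level of the low-count genes fell from sample to sample as the total rose. The ranking of samples by this level is therefore not independent of their totals. The part of the total or of low-level signal in the values of MMP10 and of other members under about 1 CPM was not tested. WTAPP1, on the opposite strand over MMP1, MMP3 and MMP10, had at most 0.452 CPM.

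MMP3 (stromelysin 1) reached at most 0.777 CPM, in C10, and had 0 and 0.104 CPM in parental RKO, which is under the limit that a count of 0 allows. MMP19, another secreted protease, had 0.936 to 1.10 CPM in parental RKO and 0.906 in H9-A4. It had 1.34 to 1.87 in E3, C10, F6-A7 and G1-A5, 3.57 in A6-C9 and 6.23 in A9-A12. MMP11 (stromelysin 3) had 2.92 and 4.07 CPM in parental RKO and 3.11 to 8.48 in the clones. None of the 3 passed with or without H9-A4, and the gelatinase MMP9 did not exceed 0.71 CPM.

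The sheddases ADAM10 and ADAM17 were among the steadiest members. ADAM10, on the minus strand of chromosome 15 (58881008 to 59041990, GRCh37), had 95.4 and 103 CPM in parental RKO, 112 in E3, 121 in C10, 89.1 in F6-A7, 112 in H9-A4, 92.5 in A9-A12, 92.5 in G1-A5 and 89.5 in A6-C9. The DIP2C-/- clones and H9-A4 were above both parental samples and the 4 other DIP2C+/- clones below both. The log2 fold change was 0.23 in DIP2C-/- (SE 0.16, adjusted p = 0.572, edgeR) and −0.06 in DIP2C+/- clones (SE 0.13, adjusted p = 0.899, edgeR), or −0.13 without H9-A4 (adjusted p = 0.591, edgeR). ADAM17, on the minus strand of chromosome 2 (9628615 to 9696861, GRCh37), had 36.7 and 39.8 CPM in parental RKO, 36.1 in E3, 38.1 in C10, 39.4 in F6-A7, 36.4 in H9-A4, 50.8 in A9-A12, 49.1 in G1-A5 and 29.9 in A6-C9. Its highest and lowest values were both in DIP2C+/- clones, on either side of the parental samples. The log2 fold change was −0.05 in DIP2C-/- (SE 0.25, adjusted p = 0.958, edgeR) and 0.10 in DIP2C+/- clones (SE 0.21, adjusted p = 0.887, edgeR).

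ADAM22 has no active protease site and is known as a neuronal receptor of LGI1. The gene lies on the plus strand of chromosome 7 (87563458 to 87832204, GRCh37). It had 13.5 and 19.0 CPM in parental RKO, 14 in E3, 9.95 in C10, 9.32 in F6-A7, 15.5 in H9-A4, 8.27 in A9-A12, 9.07 in G1-A5 and 7.10 in A6-C9. C10 and 4 DIP2C+/- clones were below both parental samples, while E3 and H9-A4 lay between them. Without H9-A4, ADAM22 fell in DIP2C+/- clones by 0.95 on the log2 scale (SE 0.24, adjusted p = 0.0327, edgeR), and it had −0.44 (SE 0.28, adjusted p = 0.448, edgeR) in DIP2C-/- clones. Over all 9 samples the DIP2C+/- value was −0.72 (adjusted p = 0.415, edgeR), and over 16 alternatives the adjusted p ranged from 0.0327 to 0.881, passing once.

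The most abundant ADAM transcripts did not pass. ADAM15 had 252 and 261 CPM in parental RKO and 252 to 346 in the clones, and ADAM9 had 132 and 101 CPM in parental RKO and 95.1 to 184 in the clones. Both code for membrane proteases with an active site. For ADAM9 the 6 clones other than H9-A4 were above both parental samples, with a log2 fold change over them of 0.41 (adjusted p = 0.125, edgeR), and 0.33 with all 9 samples (adjusted p = 0.531, edgeR). ADAM11, which like ADAM22 lacks an active site, had 1.82 and 2.40 CPM in parental RKO and 1.64 to 5.22 in the clones, and ADAM8 had 1.93 and 2.04 CPM and 1.08 to 3.11. ADAM12, ADAM19, ADAM30, ADAM32 and ADAM33 stayed at or under 1.10 CPM in every sample, and ADAM21 reached 2.36 CPM in A9-A12.

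Of the 16 ADAMTS genes tested, none passed with all 9 samples or without H9-A4. ADAMTS16 had 0.826 and 0.992 CPM in parental RKO, 1.10 in E3, 8.34 in C10, 3.53 in F6-A7, 0.906 in H9-A4, 0.429 in A9-A12, 0.296 in G1-A5 and 5.16 in A6-C9. It was high in C10, A6-C9 and F6-A7 and near or below parental RKO in the others, and the 2 DIP2C-/- clones differed widely from each other. ADAMTS16 had a log2 fold change of 2.37 in DIP2C-/- clones (SE 1.31, adjusted p = 0.470, edgeR) and 1.17 in DIP2C+/- clones (SE 1.14, adjusted p = 0.729, edgeR).

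ADAMTS13, the protease that cuts von Willebrand factor, had 3.86 and 4.18 CPM in parental RKO and 4.47 to 12 in the clones, all 7 of them higher (log2 fold change 0.68, adjusted p = 0.482, edgeR). ADAMTS17 had 3.30 and 5.12 CPM in parental RKO and 0.644 to 2.92 in the clones, all 7 of them lower (log2 fold change −1.20, adjusted p = 0.326, edgeR). How many of all genes lie apart from the 2 parental samples in this way was not counted, here or for the members above. ADAMTS9, a proteoglycan-cleaving enzyme and the highest ADAMTS gene in parental RKO by CPM, had 9.58 and 12.9 CPM there and 6.51 to 11.5 in the clones. ADAMTS6 and ADAMTS19 had 1.46 to 2.53 CPM in parental RKO and reached 6.45 in E3 and 5.54 in F6-A7. The procollagen-processing ADAMTS2, ADAMTS3 and ADAMTS14 and the proteoglycanases ADAMTS1, ADAMTS5, ADAMTS15 and ADAMTS20 did not exceed 1.64 CPM, nor did ADAMTS10, ADAMTS12 and ADAMTS18.

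Single clones were also set against the parental mean as log2 CPM (prior count 2), without a test, since each clone is 1 sample. A difference of at least 4-fold was reached by 3 members higher and 1 lower in E3, and by the same numbers in C10, where 2.72% and 2.8% of all genes tested differed that far in either direction. F6-A7 had 2 higher and 1 lower (2.81% of all genes), A9-A12 had 3 and 2 (3.34%), G1-A5 had 0 and 2 (2.43%) and A6-C9 had 3 and 1 (3.21%). H9-A4 had 0 of 45 members beyond 4-fold (1.21% of all genes). In all, 9 members reached 4-fold in some clone. ADAMTSL1 did so downward in 6 clones, MMP1 and MMP3 upward in 4 clones each, and MMP10 and ADAMTS16 upward in 2 clones each. ADAM21 and MMP19 were higher and ADAMTS17 lower in A9-A12, and ADAMTS19 was lower in G1-A5. All but ADAMTSL1 had at most 8.34 CPM in any sample, and 3 members reached 4-fold once every sample had to hold 10 counts.

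**Figure D4:**
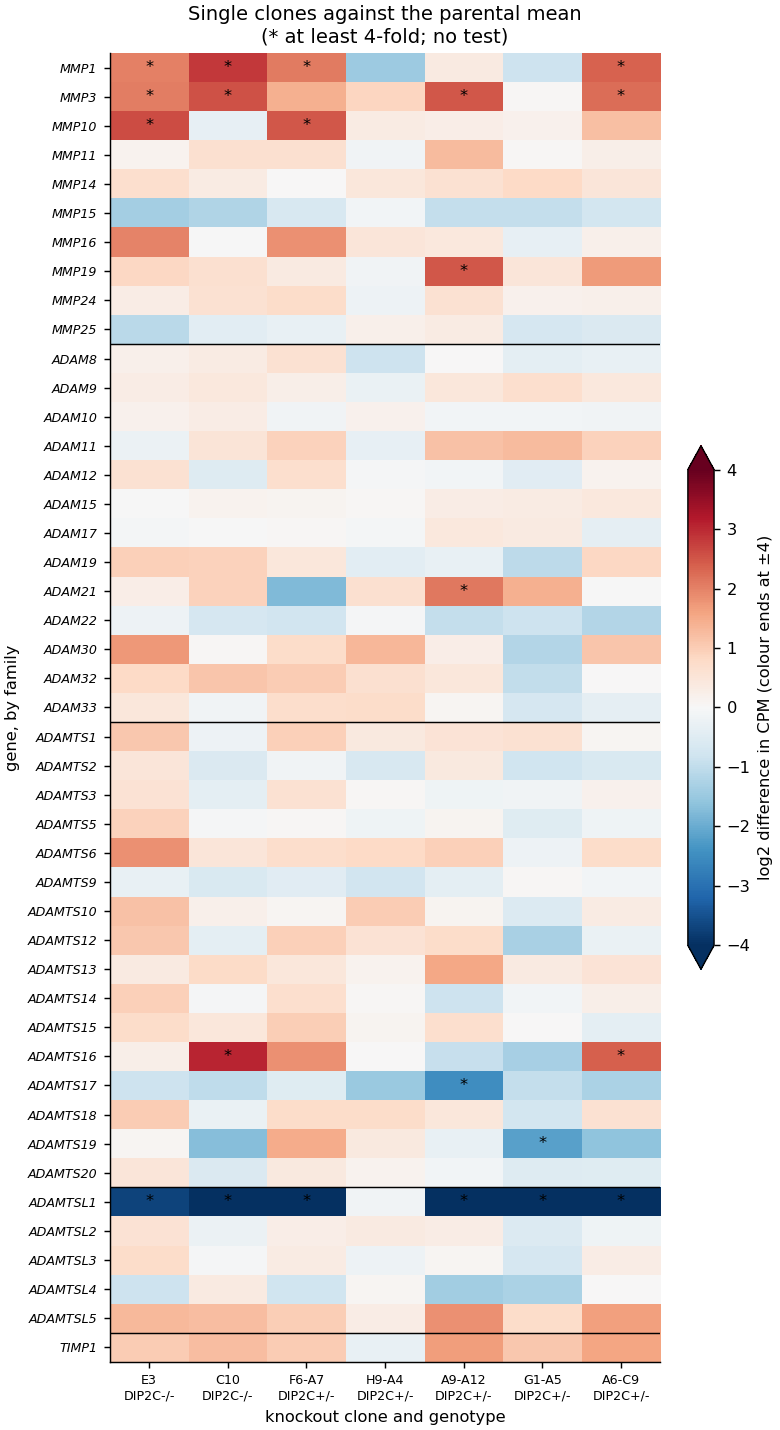
Log2 difference in CPM from the parental mean (colour, blue lower and red higher, ending at ±4) for the 45 tested members (rows, by family) in each of the 7 knockout clones (columns). Asterisks mark at least 4-fold; ADAMTSL1 carries 6 of them and the column of H9-A4 has 0.

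The number of intact DIP2C copies was addressed by setting DIP2C+/- against DIP2C-/- clones. No member passed (0 of 45; 0% of all genes), and 1 member had an unadjusted p under 0.05 with all 9 samples (edgeR), beside 5.57% of all genes. Without H9-A4 none passed either, against 0% of all genes, and 3 members (6.82%) had an unadjusted p under 0.05, beside 7.10% of all genes. Of these, MMP15 was higher in DIP2C+/- clones by 0.46 on the log2 scale (SE 0.17, adjusted p = 0.679, edgeR). ADAM11 was also higher, by 0.94 (SE 0.38, adjusted p = 0.679, edgeR), and ADAM10 was lower, with −0.36 (SE 0.11, adjusted p = 0.679, edgeR). For ADAMTSL1 the difference was −0.65 (SE 0.56) and for TIMP1 0.22 (SE 0.20). A p above the threshold does not show that the genotypes were alike.

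Genes that act with these proteases were counted from lists chosen with earlier results of these data known. With all 9 samples, 0 genes passed in any list over all clones (edgeR), and 1 of 7 activators and inhibitors, 3 of 9 partners, 1 of 11 shed substrates and 1 of 14 matrix substrates had an unadjusted p under 0.05, beside 13.4% of all genes. DESeq2 called BSG and RHBDF2. Without H9-A4, where 4.48% of all genes rose and 4.47% fell, among 7 tested activators and inhibitors outside the families BSG rose, a surface glycoprotein known to induce MMPs, with a log2 fold change of 0.55 (adjusted p = 0.0111, edgeR); it had 499 to 511 CPM in parental RKO, 712 to 806 in the 6 clones and 915 in H9-A4. Among 9 partners of ADAM10 and ADAM17, RHBDF2 and FRMD8, which take part in the transport and surface stability of ADAM17, rose and TSPAN15 fell. RHBDF2 had 12.4 and 14.3 CPM in parental RKO, 21.9 to 36.3 in the 6 clones and 16.3 in H9-A4 (log2 fold change 1.19, adjusted p = 0.00155, edgeR).

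TSPAN15 is a tetraspanin that binds ADAM10. It had 11.8 and 11.5 CPM in parental RKO, 14.9 in H9-A4 and 0 to 0.258 in the 6 other clones (log2 fold change −6.19, adjusted p = 3.12e-05, edgeR). Among 11 tested shed substrates, the hyaluronan receptor CD44 rose, from 24.9 and 28.4 CPM in parental RKO to 164 to 287 in the 6 clones, with 1.02 in H9-A4 (log2 fold change 3.0, adjusted p = 4.71e-05, edgeR). The receptor NOTCH2 fell by 0.60 on the log2 scale (adjusted p = 0.00643, edgeR). Of 14 matrix substrates 0 passed without H9-A4 (edgeR), and 2 had an unadjusted p under 0.05, beside 23.1% of all genes. For the list genes called over the 6 clones, the fit of all 9 samples gave adjusted p values (edgeR) of 0.174 for BSG, 0.247 for RHBDF2 and 0.301 for FRMD8. They were 0.369 for TSPAN15, 0.364 for CD44 and 0.540 for NOTCH2, and the log2 fold change of TSPAN15 was −3.22 in that fit. Without H9-A4 the list medians over the clones were 0.22 for activators and inhibitors, 0.18 for partners, −0.22 for shed substrates and 0.08 for matrix substrates on the log2 scale, against 0.01 for all genes tested.

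Markers of other cell types were low. Summed over 8 genes, stromal markers had 5.67 to 7.05 CPM in parental RKO and 4.04 to 8.33 in the clones, with DCN, POSTN and THY1 under 1 CPM in every sample. LUM, also a stromal marker, had 4.98 CPM in G1-A5 and 0 to 0.590 in the other samples. Summed endothelial markers had 2.15 to 2.61 CPM and 1.87 to 4.75, and of these PECAM1 was under 1 CPM throughout. The blood cell markers PTPRC, CD3E, CD14 and HBB were each under 1 CPM in every sample. CD68, a lysosomal protein used as a macrophage marker, was the exception, with 85.9 and 86.1 CPM in parental RKO, 465 to 674 in the 6 clones and 16.3 in H9-A4. Without H9-A4 it rose by 2.69 on the log2 scale over the 6 clones (adjusted p = 4.42e-06, edgeR, and 0.327 with all 9 samples), the clones in which TIMP1 and ADAMTSL1 also differed from parental RKO, and its part in those results was not tested. Of the tested colon epithelial markers 0 passed with or without H9-A4 (edgeR), and 0 and 1 had an unadjusted p under 0.05.

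To show what the 5 called members carry in front of their start sites, the 250 bases before the RefSeq transcription start are printed (GRCh38.p14, 5′ to 3′ on the strand of the gene), a different build from the positions given for the genes. They are chr9:18473903-18474152 (plus strand) for ADAMTSL1, chr7:87934001-87934250 (plus strand) for ADAM22, chr16:58025504-58025753 (plus strand) for MMP15, chr19:1513020-1513269 (minus strand) for ADAMTSL5 and chrX:47582186-47582435 (plus strand) for TIMP1. Capitals mark matches on either strand to GGGCGG, a GC box bound by Sp-family factors and read as CCGCCC on the other strand, and to CCAAT, read as ATTGG. Genes can have further start sites, and which one RKO uses was not tested. The ADAMTSL1 window lies well inside the gene bounds given above, so it precedes an internal start and not the first annotated base of the gene.
ADAMTSL1: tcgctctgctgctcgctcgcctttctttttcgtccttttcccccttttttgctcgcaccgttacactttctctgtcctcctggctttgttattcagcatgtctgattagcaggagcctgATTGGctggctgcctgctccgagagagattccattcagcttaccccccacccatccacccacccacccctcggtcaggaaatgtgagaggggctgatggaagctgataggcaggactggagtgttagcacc
ADAM22: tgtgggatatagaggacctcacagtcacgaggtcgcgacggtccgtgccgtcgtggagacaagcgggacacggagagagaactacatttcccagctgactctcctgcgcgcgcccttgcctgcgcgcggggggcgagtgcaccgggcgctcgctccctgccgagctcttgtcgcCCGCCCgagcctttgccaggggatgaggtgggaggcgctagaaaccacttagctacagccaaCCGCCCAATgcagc
MMP15: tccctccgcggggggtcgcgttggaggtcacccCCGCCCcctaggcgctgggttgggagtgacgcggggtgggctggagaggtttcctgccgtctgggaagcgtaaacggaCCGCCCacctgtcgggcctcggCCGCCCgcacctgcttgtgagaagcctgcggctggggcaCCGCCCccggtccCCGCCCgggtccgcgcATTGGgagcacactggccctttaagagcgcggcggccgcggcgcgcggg
ADAMTSL5: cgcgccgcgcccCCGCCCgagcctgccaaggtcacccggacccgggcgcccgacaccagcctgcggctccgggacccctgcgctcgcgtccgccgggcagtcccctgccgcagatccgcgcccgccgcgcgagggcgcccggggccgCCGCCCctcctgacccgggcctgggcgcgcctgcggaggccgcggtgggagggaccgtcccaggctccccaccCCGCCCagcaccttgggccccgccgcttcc
TIMP1: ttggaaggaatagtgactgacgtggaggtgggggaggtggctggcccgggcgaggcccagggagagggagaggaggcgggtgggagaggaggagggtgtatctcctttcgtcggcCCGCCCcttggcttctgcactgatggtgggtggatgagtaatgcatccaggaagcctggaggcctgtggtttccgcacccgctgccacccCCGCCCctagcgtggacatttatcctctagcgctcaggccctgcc

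ADAMTSL1, the member with the largest fall, had a CpG-poor window with 8 CpG pairs, 1 CCAAT match 131 bases before the start and 0 matches to GGGCGG. MMP15 had 31 CpG pairs, 5 GGGCGG matches and 1 CCAAT match, and ADAM22 had 25 CpG pairs, 2 GGGCGG matches and 1 CCAAT match, of which the CCAAT and the nearer GGGCGG match overlap by 2 bases. ADAMTSL5 had 38 CpG pairs and 3 GGGCGG matches, and TIMP1 had 12 CpG pairs and 2. Neither TATAAA nor TGANTCA, the AP-1 site motif, was found in the 5 windows on either strand, which says only that these letters are not there. Of all 35097 RefSeq windows of this length, 32.0% held CCAAT, 42.6% GGGCGG, 10.7% TATAAA and 6.57% TGANTCA.

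Promoter windows were found for 44 of the 74 members. The 32 windows of 31 tested members had a median of 23.5 CpG pairs and 78.1% held GGGCGG, while the windows of 11 off members had a median of 4 CpG pairs, 36.4% held GGGCGG and 45.5% held TATAAA. The median over all windows was 11 CpG pairs. These are descriptions, and members of the chromosome 11 cluster are neighbours and not independent.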

How the data were processed

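RNA-seq of 9 RKO samples was analysed. Per the study's methods and the submitters' processing notes, the authors aligned Ion Proton reads to hg19 with TopHat2 2.0.4 and quantified genes with Cufflinks (2.2.1 in the notes). The files deposited hold estimated counts for each gene, in steps of 1 constant per sample (0.711 to 1.11), so that 98.2% to 98.6% of values were whole multiples of it within 0.02 reads. Strandedness is not given in the sources used here.

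Values were rounded to whole numbers, filtered with filterByExpr (15532 of 23619 genes), TMM-normalised and fitted in edgeR 4.0.16 (R 4.3.3) with 1 coefficient per genotype over all 9 samples. Quasi-likelihood F tests compared DIP2C-/- clones, DIP2C+/- clones and the equally weighted 7 clones with parental RKO, and DIP2C+/- with DIP2C-/- clones. P-values were adjusted by Benjamini-Hochberg over all genes, and a call needed an adjusted p under 0.05. The biological coefficient of variation was 0.298, and 0.242 without H9-A4. Chi-square values of same-group pairs, divided by their degrees of freedom, were 20.7 to 136.7, so each sample was counted as its own replicate. The scripts, with DESeq2 1.42.0, were tested on simulated data. The labels give no batch or date.

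Groups came from the genotype labels. The study describes fewer DIP2C+/- clones than the 5 labelled so. Gene positions are from GENCODE 44 mapped to GRCh37. The members, gene lists, the fit without H9-A4 and the alternatives were chosen with earlier results of these data known. Values per sample are given for members called in a contrast with or without H9-A4, for members at least 4-fold from parental in 2 or more clones with at least 1 CPM, and for ADAM10, ADAM17, MMP14, TIMP1, TIMP2 and TIMP3; other members singled out were chosen after their values were seen. Alternatives were DESeq2 size factors in edgeR, the Wald test of DESeq2, keeping every gene with a count or only genes with 10 counts in every sample, only the groups compared, values divided by the constant, leaving out each sample or both H9-A4 and A6-C9, and, for single clones, a prior count of 0.5 or library size scaling. 1 marker gene is not reported here.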

Additional observations from a re-analysis of the deposited data

Results flagged for a closer look

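In each of the 45 tested members, the highest and lowest of the 5 DIP2C+/- clones were compared with the others by Dixon's gap ratio, and 7 members had a clone past the 95% critical value. For independent groups of normally distributed values chance flags about 1 in 20, which is 2.25 of 45. Whether CPM values are so distributed was not tested, and the members share the same 5 clones, so 2.25 is only a rough guide. Clone H9-A4, already seen to stand apart, was the high clone for 3 of the 7 flagged members. These were ADAMTSL1 with 124 CPM against 1.63 to 6.44 in the others, and ADAM10 with 112 against 89.1 to 92.5. The last was ADAM22 with 15.5 against 7.10 to 9.32. Clone F6-A7 was high for MMP10 with 1.40 CPM against 0.197 to 0.511 and for MMP16 with 1.04 against 0.148 to 0.340. In clone A9-A12, ADAMTS13 had 12 CPM against 4.47 to 5.87. ADAMTS18 was low in clone G1-A5 with 0.197 CPM against 0.590 to 0.736. Among the DIP2C+/- clones F6-A7 had the highest and G1-A5 the lowest mean level of low-count genes (0.161 and 0.0778 CPM). They also had the smallest and the largest deposited total of these clones. The part of this in MMP10, MMP16 and ADAMTS18 was not tested.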

How the results depend on the processing

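The counts of called members depended on clone H9-A4 and on which samples were fitted. Leaving out each sample in turn gave 0 to 1 member higher and 0 to 2 lower in DIP2C-/- clones, 0 to 2 and 0 to 3 in DIP2C+/- clones, and 0 to 2 and 0 to 2 over all clones, with calls only where H9-A4 was left out. Without both H9-A4 and A6-C9 there were 1 higher and 2 lower in each of the 3 contrasts. With only the groups compared, DIP2C-/- clones had 3 higher and 2 lower. DESeq2's Wald test called 1 lower in DIP2C-/- clones and 1 over all clones. Across all genes edgeR called 0 higher and 1 lower in DIP2C-/- clones, against 81 and 182 by DESeq2 and 826 and 981 with only the groups compared. DIP2C+/- against DIP2C-/- clones gave 0 members under every setting run. These changes follow from the samples or test used, and their cause was not tested.

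The 9 members at least 4-fold from parental in some clone became 3 with at least 10 counts in every sample and 6 to 12 with 1 sample left out. The 23 off members became 1 under a limit of 3 counts, 37 under 1 CPM, 13 with values divided by the constant, and 23 to 26 with 1 sample left out. The sign turned when 1 sample was left out for ADAM10 (-0.127 to 0.00421 on the log2 scale in DIP2C+/- clones and -0.0408 to 0.0814 over all clones), ADAM17 (-0.126 to 0.00824 in DIP2C-/- clones and -0.00348 to 0.123 over all clones) and MMP10 (-0.589 to 3.17 in DIP2C-/- clones, negative without E3), none of them called. Of the other values of the members given per sample, 472 stayed on their side of the threshold and 28 became calls. With 2 parental samples, leaving out 1 leaves a lone sample assumed to vary like the others. Members under about 1 CPM are limited by depth. No paired analysis was possible because only the parental titles carry replicate numbers.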
